A study of Mus musculus and Homo sapiens with 14 samples.

Results

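The genes described are those of the translation initiation factors, taken as every gene whose symbol begins with Eif1 to Eif6, without the Eif2ak kinases. The rule found 51 of the 20682 genes in the mouse tables and 51 of the 19166 in the human table. They were followed in acute myeloid leukemia cells, in 7 groups of 2 polyA RNA-seq libraries. RN2c, a mouse leukemia line (RN2, driven by MLL-AF9 and mutant Nras) that carries Cas9, was collected at day 2 after infection with a guide RNA against Sik3 (guides e1 and e3), against Mef2c (guides 1 and 2) or against the Rosa26 locus as a cutting control (libraries 1 and 2). RN2 cells received 350 nM YKL-05-099, a compound that blocks the SIK family of kinases, or 0.1% DMSO for 2 h, and the titles of these libraries also name an empty vector. MOLM-13, a human line with an MLL-AF9 fusion, carried an empty vector in all libraries and received 250 nM YKL-05-099 or 0.1% DMSO for 2 h. Each sgSik3 and sgMef2c library was an infected Cas9 culture with its own guide, not stated to be a clone, so its group's spread includes the difference between guides. For the sgRosa26, YKL-05-099 and DMSO groups the labels name no separate cultures, and their spread could be technical.

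Initiation factors bring a ribosome to the start codon of an mRNA. eIF2 carries the initiator tRNA to the small subunit and is recharged by its exchange factor eIF2B, while eIF1, eIF1A and the large eIF3 complex hold the small subunit ready for scanning. eIF4F, made of the cap-binding eIF4E, the scaffold eIF4G and the helicase eIF4A, recruits that subunit to capped mRNA, and the 4E-BP proteins block eIF4E. eIF5 and eIF5B act at start codon recognition and subunit joining, eIF6 keeps the large subunit apart, and eIF5A, which carries the modified residue hypusine, acts mainly in elongation and termination. Growing leukemia cells have a high demand for these factors, and several of them are known targets of the MYC transcription factor.

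The libraries held 13961461 to 24275290 reads, and each value below is a gene's read number scaled by its library's size factor, as deposited (normalised reads, 2 libraries per group throughout). Per kilobase of exon (GENCODE M21 exons merged per gene), Eif5a was the most abundant member in sgRosa26 cells, at 11739 and 11798 normalised reads, ahead of the helicase gene Eif4a1 at 4635 and 4529. The least abundant measured member was Eif2b3, at 152 normalised reads per kilobase in each sgRosa26 library. A gene was tested when its mean reached 10 normalised reads over the 4 libraries of a comparison. This kept 46 members in each RN2c comparison, 47 in RN2 and 48 in MOLM-13. In all mouse tables Eif2s3y, Eif3j1, Eif3j2 and Eif4e1b were listed at 0 in every library, as were EIF3C, EIF3CL and EIF4E1B in MOLM-13. Eif3j1 and Eif3j2 are near-identical copies of each other, as are EIF3C and EIF3CL, so their levels are uncertain. Eif5a2, the paralog of Eif5a, was below the filter in RN2c. The sgSik3 and sgMef2c comparisons share the same sgRosa26 libraries, so they are not independent of each other. Reads of the 2 libraries in a group always differed by more than sampling noise (chi-square per degree of freedom 1.71 to 14.4).

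The labels were checked on the targeted genes. Sik3 had 1219 and 1169 normalised reads with sgSik3 and 1939 and 1878 with sgRosa26 (log2 fold change -0.68). Mef2c had 3892 and 4021 with sgMef2c and 8395 and 8369 with sgRosa26 (log2 fold change -1.08). Transcripts of both targeted genes remained. All 10 markers of myeloid leukemia cells were measured in each comparison, and summed markers of T cells, B cells, fibroblasts and endothelial cells reached at most 11.5 normalised reads in any RN2c or RN2 library, and those of erythroid and epithelial cells at most 23.7. Cd3e, Cd3g, Ms4a1, Hba-a1, Hbb-bs, Hbb-bt and Kdr were at 0 in all of them. In MOLM-13 the sums were 19.1 to 41.9 for T cells, B cells and fibroblasts, at most 15.1 for endothelial and epithelial cells, and 405.5 and 450.0 with YKL-05-099 and 376 and 442 with DMSO for erythroid cells, with CD3E, CD3G, MS4A1, HBA1, HBB, COL3A1, CDH5, KDR, EPCAM and CDH1 at 0. EPOR was the only erythroid marker in MOLM-13 that reached the filter for testing. In bulk RNA, fewer cells of a type and less RNA per cell cannot be told apart.

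Cutting Sik3 was followed by lower mRNA of most initiation factor genes, by moderate amounts. Of the 46 measured members, 31 fell and 2 rose, where 23.9% of all 10934 genes tested fell and 23.9% rose (limma, adjusted p under 0.05). At an unadjusted p under 0.05, 35 members differed, against 54% of all genes. The median log2 fold change was -0.21 over the measured members and -0.0005 over all genes tested. Members took 1.27% and 1.28% of all reads in the sgSik3 libraries, against 1.49% and 1.46% in the sgRosa26 libraries. Every complex had members that fell, and all 3 measured eIF2 subunits were among them. The eIF4E homologs and inhibitors had the lowest share, 2 of 6. In 36 of the 46 members the sgSik3 libraries both lay below the sgRosa26 libraries and in 6 both lay above, against 37.8% and 37.4% of all genes. Leaving out 1 library at a time gave 27 to 32 falls, and 26 of the 31 held whichever library was left out. Markers of maturing granulocytes moved with this group: 10 of 10 rose, their summed level was 109266 and 99895 in sgSik3 libraries and 19798 and 21692 in sgRosa26 libraries, none was at 0 in all libraries, and their part in the changes of initiation factor genes was not tested. Of the myeloid leukemia markers 9 of 10 rose as well.

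**Figure D1:**
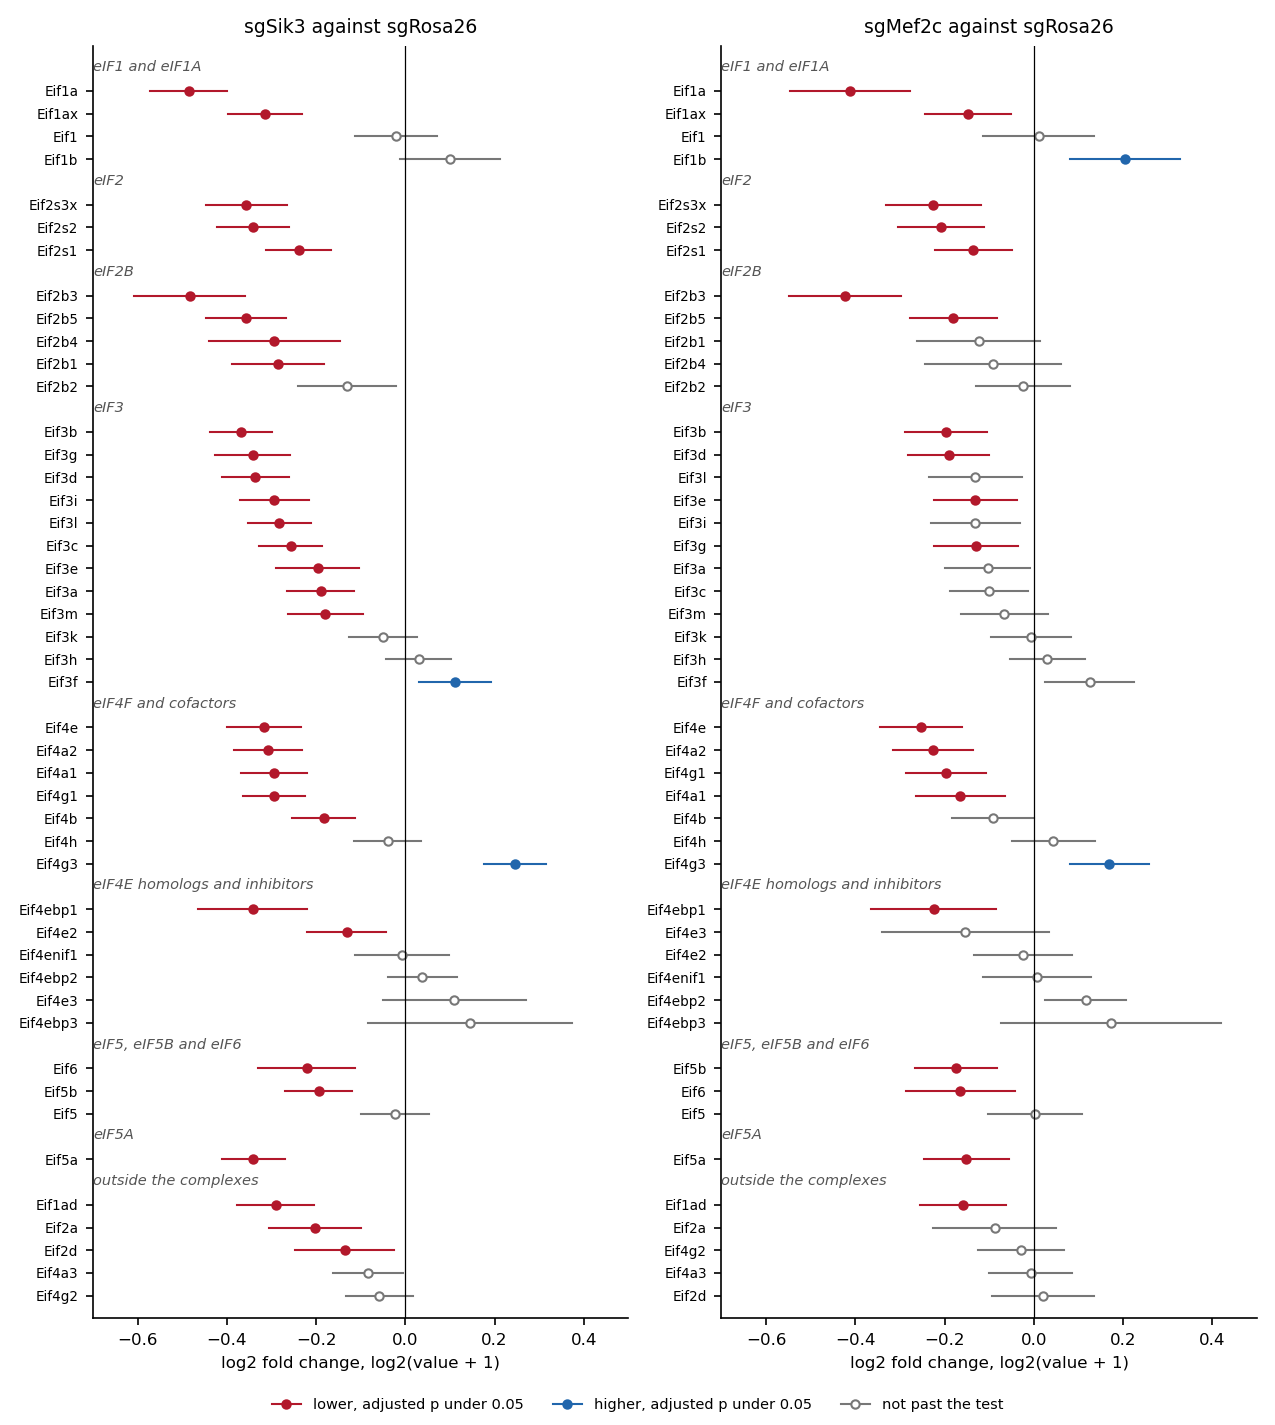
Log2 fold change (on log2(value + 1)) of the 46 measured initiation factor genes with sgSik3 (left) and sgMef2c (right) against sgRosa26, grouped by complex, with points for the limma estimate from 2 libraries per group and lines for its 95% confidence interval. With sgSik3 31 genes lie below 0 past the test and 2 above, with sgMef2c 20 and 2.

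Of the genes of eIF1 and eIF1A, which ready the small subunit, 2 of the 4 measured fell and 0 rose. Eif1a, which encodes an eIF1A, had 2702 and 2709 normalised reads in sgSik3 libraries and 3884 and 3696 in sgRosa26 libraries. The sgSik3 libraries differed by far less than their distance from the controls, and the log2 fold change was -0.49 (SE 0.038, limma adjusted p = 1.35e-05). Its X-linked relative Eif1ax, on chromosome X at 159372178 to 159389928 (GRCm38, plus strand, protein-coding), had a log2 fold change of -0.32 (limma adjusted p = 1.30e-04). Eif1, which guards start codon choice, had 3849 and 3824 normalised reads in sgSik3 libraries, within the 4031 and 3756 of sgRosa26 libraries. Its paralog Eif1b had a log2 fold change of 0.10 and did not pass the test (limma adjusted p = 0.13).

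All 3 measured subunit genes of eIF2 fell. Eif2s3x, the gamma subunit that binds GTP and the initiator tRNA, had 1553 and 1568 normalised reads with sgSik3 and 1983 and 2011 with sgRosa26 (log2 fold change -0.36, limma adjusted p = 1.05e-04). Eif2s2, the beta subunit, had 3237 and 3159 with sgSik3 and 4109 and 3993 with sgRosa26 (log2 fold change -0.34). Eif2s1, the alpha subunit whose phosphorylation curbs initiation, had a log2 fold change of -0.24. The groups did not overlap for any of the 3. The interval of the alpha subunit's change, -0.31 to -0.17, overlapped those of the beta and gamma subunits, -0.42 to -0.26 and -0.45 to -0.27.

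Of the 5 eIF2B subunit genes, 4 fell. Eif2b3, the gamma subunit, which forms the catalytic subcomplex with epsilon, lies on chromosome 4 at 117019402 to 117087306 (GRCm38, plus strand, protein-coding). It had 693 and 728 normalised reads with sgSik3 and 993 and 993 with sgRosa26, so the sgSik3 level was 71.5% of the control level (log2 fold change -0.48, SE 0.055, limma adjusted p = 1.16e-04). Eif2b5, the epsilon subunit that carries the exchange activity, had 1675 and 1714 with sgSik3 and 2183 and 2159 with sgRosa26 (log2 fold change -0.36). The regulatory subunits alpha (Eif2b1) and delta (Eif2b4) had log2 fold changes of -0.29 and -0.29, and the call for Eif2b4 was lost without guide e1. The beta subunit gene Eif2b2 just missed the threshold, at -0.13 (limma adjusted p = 0.0511).

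Among the 12 measured eIF3 subunit genes, 9 fell and 1 rose. Eif3b, Eif3g and Eif3i, which with Eif3a and Eif3c encode the part of eIF3 also found in budding yeast, fell by 0.37, 0.34 and 0.29 on the log2 scale. Eif3b had 9077 and 9079 normalised reads in sgSik3 libraries and 11607 and 11845 in sgRosa26 libraries, a wide gap beside the spread of either group. Eif3d, a cap-binding subunit, had 4335 and 4321 with sgSik3 and 5394 and 5534 with sgRosa26 (log2 fold change -0.34). Eif3c, Eif3l, Eif3e, Eif3a and Eif3m fell by 0.26, 0.28, 0.20, 0.19 and 0.18. Eif3f, Eif3h and Eif3k did not fall past the test. Eif3f, which together with subunits h and m forms a module absent from budding yeast, had 8132 and 8064 normalised reads with sgSik3 and 7706 and 7297 with sgRosa26 (log2 fold change 0.11, limma adjusted p = 0.0293). That rise did not pass without guide e1 (adjusted p = 0.149), without guide e3 (adjusted p = 0.112), or without sgRosa26 library 2 (adjusted p = 0.102). Eif3h had a log2 fold change of 0.03 and Eif3k of -0.05, neither past the test, with 95% intervals of -0.04 to 0.10 and -0.13 to 0.03. Those intervals lie wholly above that of Eif3b, the eIF3 gene with the largest fall, -0.44 to -0.30, in the same libraries. They were not set against the intervals of smaller falls, such as Eif3a and Eif3m.

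**Figure D2:**
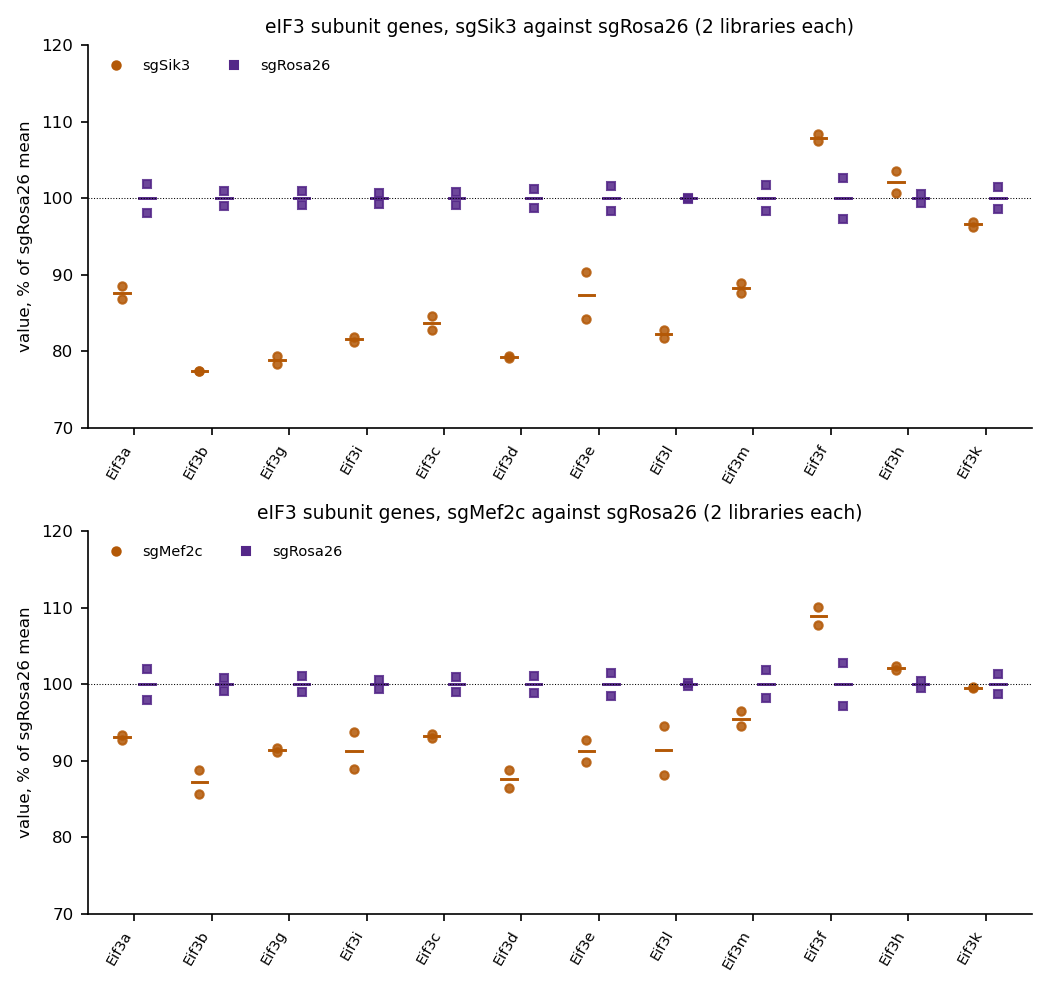
Normalised reads of the 12 measured eIF3 subunit genes in each RN2c library as a percentage of the sgRosa26 mean, with sgSik3 (top) or sgMef2c (bottom) left of sgRosa26 and a short line at the mean of 2 libraries. With sgSik3, Eif3b is at 77.4% of the sgRosa26 mean and Eif3f lies above it.

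In eIF4F, the paralogs of the scaffold went opposite ways. Eif4g1, the main scaffold gene, had 17022 and 17135 normalised reads with sgSik3 and 20764 and 21125 with sgRosa26 (log2 fold change -0.29, limma adjusted p = 6.69e-05). Eif4g3, which encodes a second scaffold that also joins eIF4E to eIF4A, had 9716 and 9578 normalised reads with sgSik3 and 8098 and 8178 with sgRosa26 (log2 fold change 0.25, SE 0.031, limma adjusted p = 1.98e-04). Eif4g3 spans chromosome 4 at 137993022 to 138208508 (GRCm38, plus strand, protein-coding), and its rise passed the test whichever library was left out. Eif4g2, which encodes DAP5, a scaffold without the eIF4E-binding site, had 34673 and 33597 with sgSik3 and 35805 and 35276 with sgRosa26 and did not pass (log2 fold change -0.06). Per kilobase of exon, Eif4g3 averaged 872 normalised reads with sgSik3 and 736 with sgRosa26, below Eif4g1, which averaged 2339 with sgSik3 and 2869 with sgRosa26.

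The cap-binding gene Eif4e had 3043 and 2929 normalised reads with sgSik3 and 3758 and 3681 with sgRosa26 (log2 fold change -0.32, limma adjusted p = 1.29e-04). Eif4e2, which encodes the repressive homolog 4EHP, fell by 0.13, a call lost without either guide. Eif4e3, an atypical homolog, had 1113 and 1122 with sgSik3, and its controls were far apart at 959 and 1119. Of the inhibitors, only Eif4ebp1 (4E-BP1, released from eIF4E when mTOR phosphorylates it) passed, with 1158 and 1068 normalised reads in sgSik3 libraries and 1435 and 1385 in sgRosa26 libraries (log2 fold change -0.34). Eif4ebp2 and Eif4ebp3 had log2 fold changes of 0.04 and 0.14, both groups' values not overlapping and neither past the test. Eif4enif1, which encodes the eIF4E transporter 4E-T, had 2401 and 2415 with sgSik3, within the 2524 and 2322 of sgRosa26.

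Both eIF4A helicase genes fell. Eif4a1, the more abundant, had 15936 and 16452 normalised reads with sgSik3 and 20089 and 19629.8 with sgRosa26 (log2 fold change -0.29), and Eif4a2 had 4064 and 4169 with sgSik3 and 5059.9 and 5134 with sgRosa26 (log2 fold change -0.31). Eif4a3, the related helicase of the exon junction complex, had a log2 fold change of -0.08 and did not pass (limma adjusted p = 0.0758). Of the helicase cofactors, Eif4b fell by 0.18 on the log2 scale, while Eif4h, at -0.04, did not pass.

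The late factors also fell, except for Eif5. Eif5a had 22312 and 21875 normalised reads with sgSik3 and 27903 and 28045 with sgRosa26, so the most abundant member per kilobase stood at 79.0% of its control level (log2 fold change -0.34, limma adjusted p = 3.13e-05). Eif5b, the GTPase of subunit joining, and Eif6 fell by 0.19 and 0.22, the call for Eif6 being lost without guide e1. Eif5, the GTPase activator of eIF2, had 10893 and 10792 with sgSik3, overlapping the 11275 and 10779 of sgRosa26. Outside the complexes, Eif1ad, Eif2a and Eif2d fell by 0.29, 0.20 and 0.14. The Eif2a call was lost without guide e3, and the Eif2d call without e1, e3 or sgRosa26 library 2.

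The 250 bases before the members' transcription starts were searched for the E-box CACGTG, which reads the same on both strands and is bound by MYC with its partner MAX. RefSeq promoters on GRCm38.p6 were at hand for 36 of the 46 measured members, and 8 of these held the motif (22.2%), against 10.1% of the 8510 tested genes and 6.86% of all 27025 genes with a promoter, a gene being counted when any of its annotated starts had it. It was present in 4 of the 25 members with a promoter that fell with sgSik3 (Eif4a1, Eif4e, Eif4g1 and Eif5a), in 3 of the 9 that did not pass (Eif1b, Eif3k and Eif4h) and in 1 of the 2 that rose (Eif3f). The motif was not limited to members that fell. A start with C followed by 4 C or T bases was found in 2 of the 36 members (5.56%) and 2.87% of tested genes. Windows of 66 bases are shown 5′ to 3′ for 3 members that fell and 1 that rose, all outside annotated exons, with the motif in capitals. They lie at chr11:69672577-69672642 (minus strand), chr11:69921425-69921490 (minus), chr16:20672643-20672708 (plus) and chr7:108934317-108934382 (plus).
Eif4a1: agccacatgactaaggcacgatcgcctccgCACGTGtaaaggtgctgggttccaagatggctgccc
Eif5a: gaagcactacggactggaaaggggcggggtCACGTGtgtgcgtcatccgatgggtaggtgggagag
Eif4g1: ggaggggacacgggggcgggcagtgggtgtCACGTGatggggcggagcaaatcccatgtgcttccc
Eif3f: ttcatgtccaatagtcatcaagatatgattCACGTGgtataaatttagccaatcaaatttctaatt
The motif began 189 bases before the RefSeq start of Eif4a1, 54 before that of Eif4g1 and 68 before that of Eif3f. It began 74 or 185 bases before 2 annotated starts of Eif5a. The windows of Eif4g1 and Eif5a lie inside their genes' GENCODE spans, which begin upstream at 20668313 and, on the minus strand, at 69921958. Myc itself had 2976 and 3119 normalised reads with sgSik3 and 5075 and 5032 with sgRosa26 (log2 fold change -0.73). Its log2 fold change was -0.36 with sgMef2c (limma adjusted p = 0.00158). After 2 h of YKL-05-099, against day 2 for the guides, it was -0.55 in RN2 (limma adjusted p = 0.026). In MOLM-13 it was -0.42, not past the test. No initiation factor gene passed in either line, where 0.28% of all genes tested in RN2 and 0% in MOLM-13 fell. The part of Myc in the members' changes was not tested.

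Neighbouring steps of translation were read from gene lists, each set beside the 23.9% of all genes that rose and the 23.9% that fell with sgSik3. Of 10 measured elongation and termination genes, 8 fell with sgSik3 and 0 rose, among them Eef1g, a subunit of the eEF1A exchange factor, at -0.47, Abce1, the ribosome recycling ATPase, at -0.41, Eef1d, another subunit of that exchange factor, at -0.40 and the release factor partner Gspt1 at -0.32. Of these falls, the calls for Eef1b2 and Eef2k were lost without guide e1 or without guide e3. Of 14 cap, poly(A) tail and scanning partners, 8 fell and 2 rose, the call for Dhx29, which fell, being lost without guide e3. The largest fall was Bzw2, an eIF5 mimic protein gene, at -0.72, followed by the poly(A)-binding protein gene Pabpc4 at -0.53, Denr, a partner in reinitiation, at -0.42 and Larp1, which binds mRNAs with a terminal pyrimidine tract, at -0.34. Paip2, an inhibitor of poly(A)-binding protein, rose by 0.23, and Paip1, its activating counterpart, by 0.18, a call lost without guide e1. In the eIF2 alpha and kinase lists the counts that rose were near the share of all genes. Among 6 eIF2 alpha kinase and phosphatase genes, 2 rose and 0 fell: Eif2ak3, which encodes PERK, at 0.24 and Ppp1r15b at 0.14. The second of these calls was lost without guide e1. Of 10 kinase genes acting on initiation factors, 2 rose (Mknk1 at 0.18 and Tsc2 at 0.18) and 2 fell (Mtor at -0.17 and Rps6kb1 at -0.13), and each of these 4 calls was lost without guide e1. Of the hypusine enzymes, Dohh fell by 0.32 and Dhps did not pass.

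Cutting Mef2c was also followed by lower mRNA of many initiation factor genes, with the same sgRosa26 libraries as controls. Of the 46 measured members, 20 fell and 2 rose, where 15.1% of the 10956 genes tested fell and 16.3% rose (limma, adjusted p under 0.05). At an unadjusted p under 0.05, 28 members differed, against 43.3% of all genes. The median log2 fold change was -0.13 over the measured members and 0.0002 over all genes. Members took 1.37% and 1.33% of reads with sgMef2c, against 1.49% and 1.46% with sgRosa26. The sgMef2c libraries both lay below the controls for 31 members and both above for 7, against 35% and 35.5% of all genes. These counts depend on single libraries: fewer members fell whichever library was left out, and fewer of all genes did too. The members' median log2 fold change was -0.14 without guide 1 and -0.10 without guide 2. It was -0.11 without sgRosa26 library 1 and -0.13 without sgRosa26 library 2. The 2 rises were lost without guide 2 or either sgRosa26 library. The falls of Eif2b3, Eif1a, Eif4e and Eif4a2 passed whichever library was left out. Of the markers of maturing granulocytes, 8 rose and 1 fell. Their summed level was 90878 and 178615 in sgMef2c libraries and 20811 and 22743 in sgRosa26 libraries, so the guides differed widely, none was at 0 in all libraries, and their part was not tested. Of the myeloid leukemia markers, 7 of 10 rose and 1 fell.

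The largest falls with sgMef2c were those of Eif2b3 and Eif1a. Eif2b3 had 783 and 773 normalised reads with sgMef2c and 1044 and 1041 with sgRosa26 (log2 fold change -0.42, SE 0.053, limma adjusted p = 0.00182). Eif1a had 3143 and 2843 with sgMef2c and 4083 and 3875 with sgRosa26 (log2 fold change -0.41, limma adjusted p = 0.00254). In both genes the sgMef2c libraries lay well below the controls. Of the genes of eIF1 and eIF1A, 2 of 4 fell and 1 rose: Eif1b had 1214 and 1277 normalised reads with sgMef2c and 1087 and 1076 with sgRosa26 (log2 fold change 0.20, limma adjusted p = 0.0247). That rise did not pass without guide 2 (adjusted p = 0.134), without sgRosa26 library 1 (adjusted p = 0.0786) or without sgRosa26 library 2 (adjusted p = 0.0961).

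The 3 eIF2 subunit genes fell, by 0.23 for Eif2s3x, 0.21 for Eif2s2 and 0.14 for Eif2s1 on the log2 scale. Without 1 library, 1 or 2 of the 3 calls remained past the test. Of the 5 eIF2B genes, Eif2b3 and Eif2b5 (at -0.18), the catalytic pair, fell, and Eif2b1, Eif2b2 and Eif2b4 did not pass. The call for Eif2b5, unlike that for Eif2b3, depended on single libraries. Of the 12 eIF3 genes, 4 fell: Eif3b at -0.20, Eif3d at -0.19, Eif3e at -0.13 and Eif3g at -0.13. Their number was 0 to 5 when 1 library was left out. Eif3b had 10932 and 10543 normalised reads with sgMef2c and 12201 and 12419 with sgRosa26. Eif3f had 8677 and 8491 with sgMef2c and 8100.2 and 7650.3 with sgRosa26, all sgMef2c values being the higher, but its log2 fold change of 0.12 did not pass (limma adjusted p = 0.0628).

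Among the eIF4F genes, 4 of 7 fell and 1 rose. Eif4e had 3238 and 3313 normalised reads with sgMef2c and 3950.2 and 3859 with sgRosa26 (log2 fold change -0.25, limma adjusted p = 0.00388). Its homologs Eif4e2 and Eif4e3 had log2 fold changes of -0.02 and -0.15 and did not pass. Eif4g1 fell to 19255 and 19091 with sgMef2c, against 21827 and 22148 with sgRosa26 (log2 fold change -0.20), a call lost without sgRosa26 library 2. Eif4g3 had 9445 and 9775 with sgMef2c and 8513 and 8575 with sgRosa26 (log2 fold change 0.17, limma adjusted p = 0.0153), and Eif4g2 had a log2 fold change of -0.03, not past the test. Without guide 2, without sgRosa26 library 1 or without sgRosa26 library 2, Eif4g3 had adjusted p = 0.0604, 0.0816 and 0.0699. Eif4a2 had 4642 and 4506 with sgMef2c and 5319 and 5382 with sgRosa26 (log2 fold change -0.23). Eif4a1 fell by 0.16, a call that depended on single libraries, and Eif4a3 at -0.01 did not pass.

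**Figure D3:**
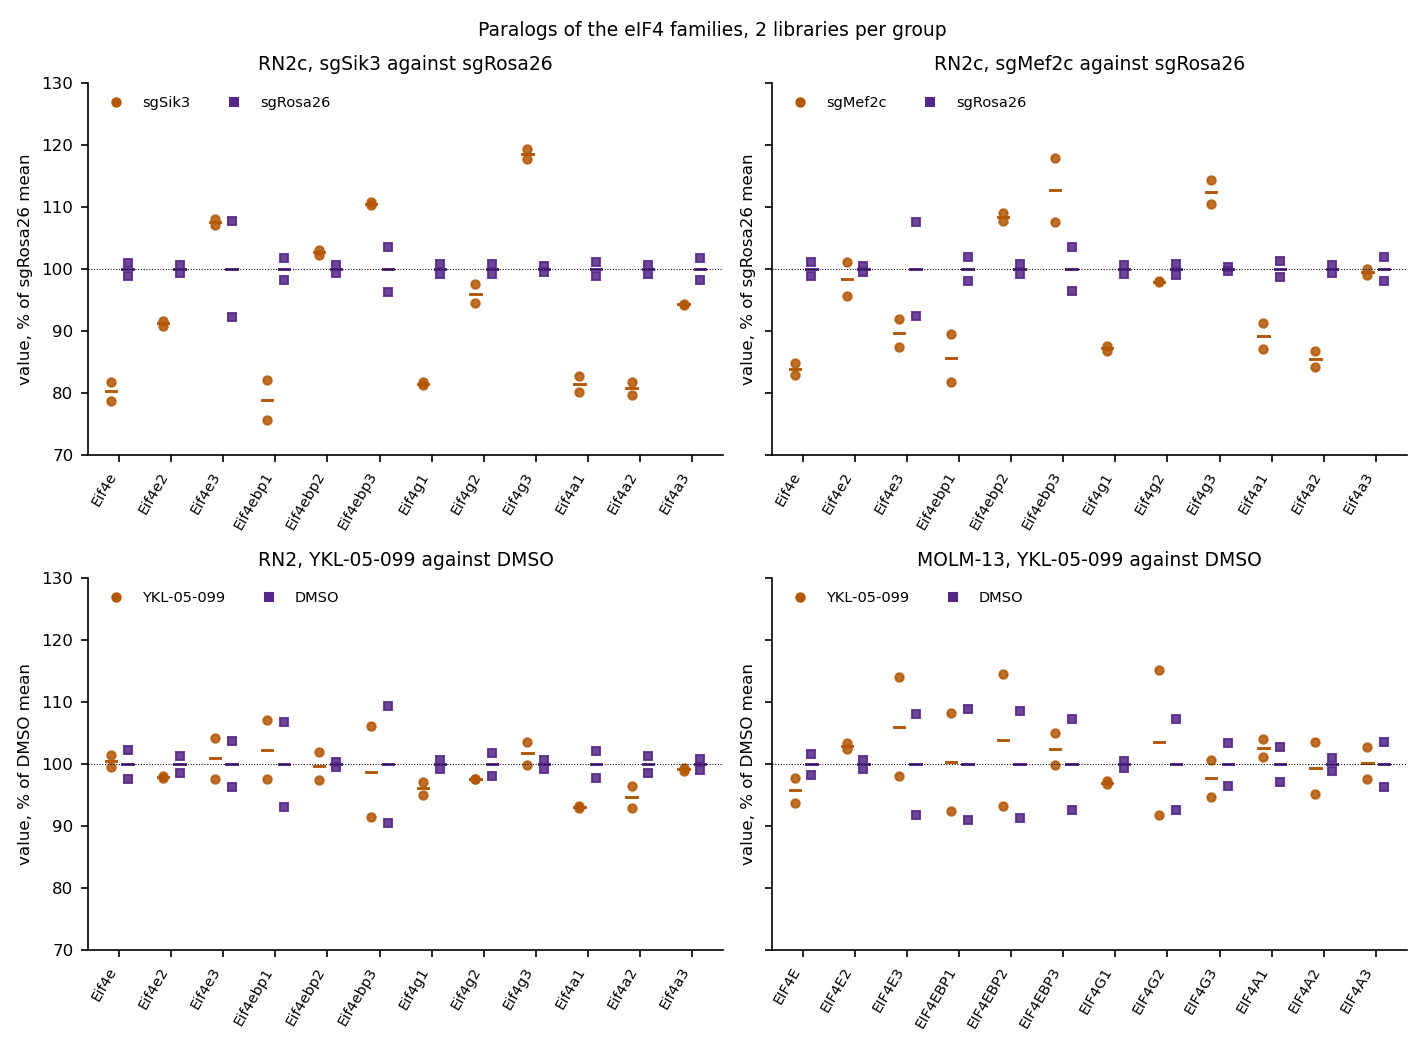
Normalised reads of the eIF4E, 4E-BP, eIF4G and eIF4A paralogs in each library as a percentage of the control mean, in RN2c (top), RN2 (bottom left) and MOLM-13 (bottom right), with the knockout or YKL-05-099 group left of its control and a short line at each mean of 2 libraries. Eif4g1 is at 81.5% with sgSik3 and 87.2% with sgMef2c, and Eif4g3 at 119% and 112%.

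Of the 4E-BP genes, Eif4ebp1 had 1325 and 1211 normalised reads with sgMef2c and 1508 and 1452 with sgRosa26 (log2 fold change -0.22), and the call was lost without guide 2 or either sgRosa26 library. Eif4ebp2 and Eif4ebp3 lay above the controls in both sgMef2c libraries, at log2 fold changes of 0.12 and 0.17, without passing (limma adjusted p = 0.0567 and 0.25). Eif5b, Eif6 and Eif5a fell by 0.17, 0.16 and 0.15, and each of these calls depended on single libraries. Outside the complexes Eif1ad fell by 0.16, a call lost whichever library was left out. Beside the lists stand the 16.3% of all genes that rose and the 15.1% that fell with sgMef2c. Of the elongation and termination genes, 5 of 10 fell, Eef1g by 0.37 and Abce1 by 0.33 among them, and of the cap, tail and scanning partners 5 of 14 fell, Bzw2 by 0.45, while Paip2 rose by 0.19. Without 1 library these became 3 to 5 and 2 to 5 falls, and the rise of Paip2 was lost without sgRosa26 library 1. Eif2ak4, which encodes GCN2, rose by 0.23, 1 of 6 eIF2 alpha kinase and phosphatase genes, and Tsc2 and Mlst8 rose by 0.20 and 0.21, 2 of 10 kinase genes, shares near that of all genes. The 3 rises were lost without guide 2, among other libraries. Both hypusine enzyme genes did not pass.

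A direct comparison of the knockouts found 9 members that differed. Levels here are TMM-scaled counts per library total (CPM), from recovered whole reads. Of 46 members, 8 were higher and 1 lower with sgMef2c than with sgSik3, where 3.7% and 5.74% of the 10954 genes tested were (edgeR, adjusted p under 0.05). The median log2 difference was 0.09 over members and 0.004 over all genes. The higher members were 5 eIF3 genes (Eif3g, Eif3b, Eif3i, Eif3c and Eif3d), Eif5a, Eif2b5 and Eif1ax, each with its sgMef2c level between those of sgSik3 and sgRosa26. Eif3g had 116 and 114 CPM with sgMef2c and 98.9 and 100.5 with sgSik3, with 128 and 125 in sgRosa26 libraries (log2 difference 0.20, edgeR adjusted p = 0.0119). Eif5a had 1229.8 and 1188 with sgMef2c and 1075 and 1057 with sgSik3, with 1350.3 and 1355 in sgRosa26 libraries (log2 difference 0.18, edgeR adjusted p = 0.0158). The other 6 differed by 0.14 to 0.17. Eif4e3 was the member that was lower, with 45.9 and 43.4 CPM with sgMef2c and 53.6 and 54.2 with sgSik3 (log2 difference -0.27, edgeR adjusted p = 0.0437). Its sgRosa26 libraries, at 46.4 and 54.1, spanned most of that difference. By DESeq2 4 members were higher and 0 lower. Without guide e1 or without guide e3 every call of a member was lost, as were most calls over all genes. The members' median log2 difference was then 0.085 and 0.095. Without sgMef2c guide 1 or guide 2 it was 0.077 and 0.0997, and the call of Eif4e3 was lost. Of the higher calls, only those of Eif3g and Eif5a held without sgMef2c guide 1. For the eIF4F and eIF2 genes no difference passed, and the log2 differences were -0.08 for Eif4g3, 0.05 for Eif4e and 0.12 for Eif2s2.

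**Figure D4:**
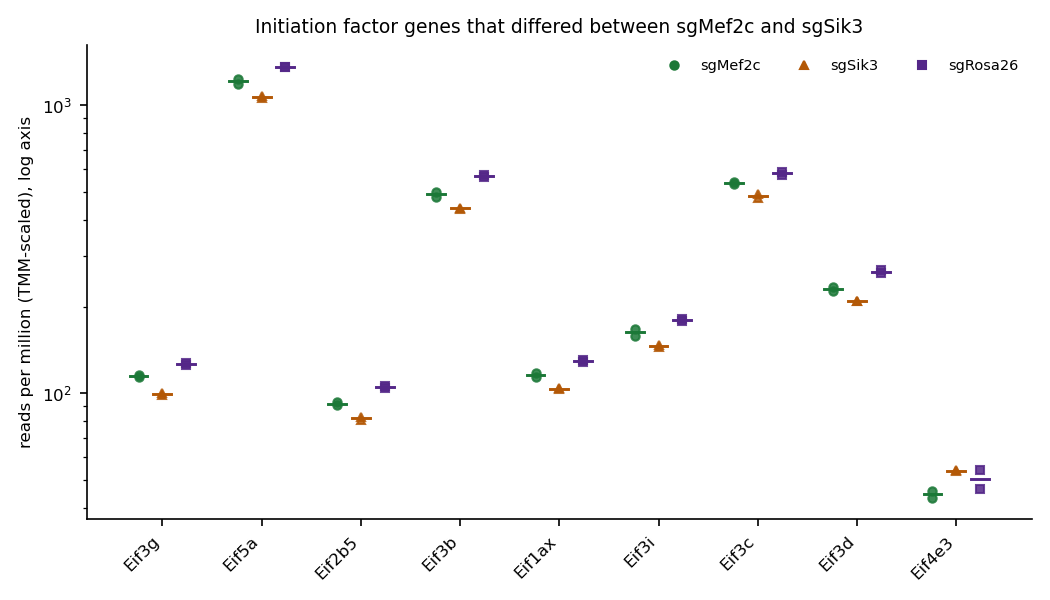
TMM-scaled CPM (log axis) of the 9 members that differed between sgMef2c and sgSik3, in each library of sgMef2c, sgSik3 and sgRosa26 from left to right, with a short line at the mean of 2 libraries. In 8 genes the sgMef2c level lies between the other groups, and in Eif4e3 sgMef2c is lowest, at 45.9 and 43.4 CPM.

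After 2 h of the inhibitor in RN2 no member passed the test. Of 47 measured members, 0 rose and 0 fell by limma, where 0.0373% of 10732 genes rose and 0.28% fell. By edgeR and DESeq2 the counts were also 0, and 3 members had an unadjusted p under 0.05 by limma and edgeR and 2 by DESeq2, against 7.32% of all genes by limma. In 17 members both YKL-05-099 libraries lay below both DMSO libraries and in 4 both lay above, against 18.7% and 18.1% of all genes. The 3 members of lowest p were Eif4a1, Eif1a and Eif1, none of which passed. Eif4a1 had 15061 and 15012 normalised reads with YKL-05-099 and 16505 and 15809 with DMSO (log2 fold change -0.10, 95% interval -0.17 to -0.03, limma adjusted p = 0.396). Eif1a had 2603 and 2274 with YKL-05-099 and 2997 and 2659 with DMSO (log2 fold change -0.21, limma adjusted p = 0.487). Eif1 had 3787 and 4008 with YKL-05-099 and 4105 and 4285 with DMSO (log2 fold change -0.11, limma adjusted p = 0.632). Without DMSO library 2, 2 members fell past the test, 1 of eIF1 and eIF1A and 1 of eIF4F, while over all 10730 genes tested 132 rose and 189 fell.

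The median log2 fold change in RN2 was -0.02 over the measured members and -0.0009 over all genes tested. The complexes had medians from -0.07 for eIF1 and eIF1A to -0.01 for eIF4F and its cofactors. The median was 0.11 for the 2 eIF5A genes, the second of which, Eif5a2, had few reads. Eif4e, Eif4e2 and Eif4e3 had log2 fold changes of 0.01, -0.03 and 0.01, and the 4E-BP genes Eif4ebp1, Eif4ebp2 and Eif4ebp3 of 0.04, -0.003 and -0.01. Eif4g1 had 15969 and 15627 normalised reads with YKL-05-099 and 16539.6 and 16315 with DMSO (log2 fold change -0.06), and Eif4g3 had 4719 and 4545 with YKL-05-099 and 4517 and 4585 with DMSO (log2 fold change 0.03). Eif4g2 had a log2 fold change of -0.03, Eif4a2 of -0.08 and Eif4a3 of -0.01. The 5 lists of neighbouring steps had 0 genes past the test. Markers of maturing granulocytes summed to 15381 and 14984 with YKL-05-099 and 14432 and 13815 with DMSO, with 0 of 10 past the test.

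In MOLM-13 no member passed either. Of 48 measured members, 0 rose and 0 fell by limma, edgeR or DESeq2, and none had an unadjusted p under 0.05, against 1.27% of the 11361 genes by limma. No gene of the table passed by limma (0% higher and 0% lower). The groups did not overlap for 5 members that were lower and 2 that were higher, against 10.5% and 10.7% of all genes. Log2 fold changes of the 47 members shown ran from -0.10 to 0.09, with a median 95% interval of ± 0.23, wider than the ± 0.10 of RN2. One further member is counted and not shown. The 3 members of lowest p were EIF2B4, EIF5AL1 and EIF3E, at -0.10, -0.10 and 0.07, and none passed (limma adjusted p = 0.9999 for each). EIF2B4 had 788 and 879 normalised reads with YKL-05-099 and 873 and 917 with DMSO. EIF5AL1 is a near-identical relative of EIF5A, so its reads are uncertain.

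Of the paralog sets in MOLM-13, EIF4E, EIF4G1 and EIF4E2 had groups that did not overlap, and none passed the test. EIF4E had 1307 and 1253 normalised reads with YKL-05-099 and 1359.6 and 1313 with DMSO (log2 fold change -0.06, 95% interval -0.29 to 0.17), and EIF4G1 had 15056 and 14976 with YKL-05-099 and 15565 and 15383 with DMSO (log2 fold change -0.04). In both genes the YKL-05-099 libraries were the lower. EIF4E2, EIF4E3, EIF4EBP1, EIF4EBP2, EIF4EBP3, EIF4G2, EIF4G3, EIF4A1, EIF4A2 and EIF4A3 had log2 fold changes between -0.03 and 0.09. EIF4G2 had 29388 and 23431 with YKL-05-099 and 27358 and 23642 with DMSO, where the libraries numbered 1 were high and those numbered 2 low in both groups. In 34 of the 48 members the libraries numbered 1 were separated from those numbered 2 (70.8%, against 64.7% of all genes tested), 17 above and 17 below. The median log2 fold change was 0.01 over the measured members and -0.0008 over all genes tested. Medians per complex lay between -0.05 (eIF1 and eIF1A) and 0.04 (eIF5, eIF5B and eIF6), and 0 genes of the 5 lists of neighbouring steps passed. Markers of maturing granulocytes had a summed level of 1112 and 969.6 with YKL-05-099, overlapping the DMSO libraries, of which the lower had 873.3, with LCN2, LTF and MMP8 at 0 in all libraries.

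**Figure D5:**
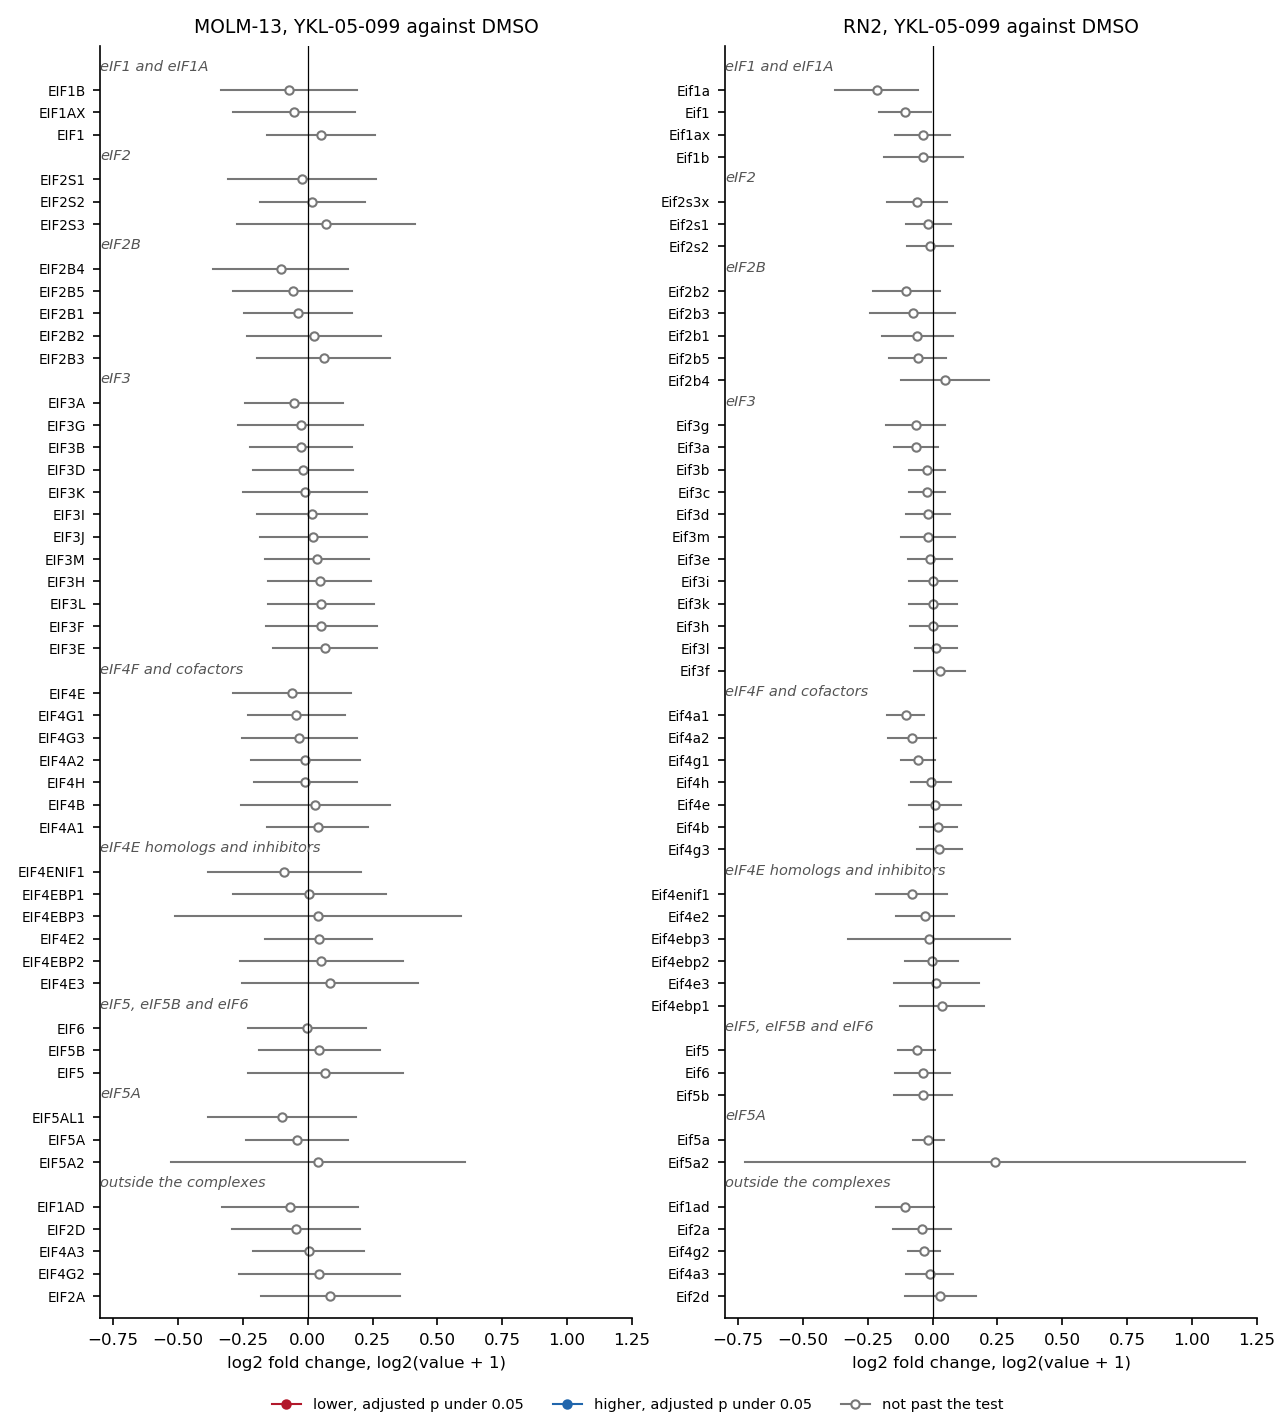
Log2 fold change (on log2(value + 1)) of initiation factor genes with YKL-05-099 against DMSO in MOLM-13 (left, 47 genes) and RN2 (right, 47 genes), grouped by complex, with points for the limma estimate from 2 libraries per group and lines for its 95% confidence interval. Every point is open, since no gene passed the test, and the points lie from -0.10 to 0.09 in MOLM-13.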

How the data were processed

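PolyA RNA was sequenced from 14 libraries. Per the submitters' processing notes, the authors used HISAT2, featureCounts and DESeq2 with builds hg19 and mm10 (versions: not given in the sources used here). Libraries were made, per the labels' protocols, with a TruSeq polyA kit, which does not mark strand. The deposited values are a signal, each gene's read count divided by its library's size factor, in 4 tables normalised separately. Whole reads were recovered from that deposited signal for all values, within 1e-06 reads.

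Tests within a table used limma 3.58.1 with a mean-variance trend on log2(value + 1), which understates changes of low genes, for genes with a mean of at least 10, with Benjamini-Hochberg adjustment over all genes and a threshold of 0.05. The fit used the 4 libraries of the comparison. The knockouts were set against each other with edgeR 4.0.16 (quasi-likelihood, TMM) on recovered reads of the RN2c libraries. Both scripts were tested on simulated data. DESeq2 1.42.0, edgeR, other filters, pseudocounts and scalings, the replicate number as a block and leaving out each library were alternatives. R was 4.3.3.

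Members named were those past the test with a mean of at least 50, by largest change, up to 8 in each direction, plus all eIF4E, 4E-BP, eIF4G and eIF4A paralogs. Where under 3 passed, the 3 of lowest p were named. Others named beside them complete the complexes. The members and lists were chosen with earlier results of these data known. One marker gene is not reported here. For RefSeq sequences, 39 of the 51 mouse members matched. Depth limits precision, and no interval here covers more than the spread between libraries.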

Additional observations from a re-analysis of the deposited data

Results flagged for a closer look

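EIF4E2, which encodes the repressive cap-binding homolog 4EHP, had small log2 fold changes of opposite sign with YKL-05-099 in the 2 cell lines. Its log2 fold change was 0.042 in MOLM-13, where it had 2353 and 2377 normalised reads with YKL-05-099 and 2281 and 2314 with DMSO. Eif4e2 had a log2 fold change of -0.030 in RN2, with 1537 and 1532 normalised reads with YKL-05-099 and 1588 and 1545 with DMSO. All treated libraries were above the controls in MOLM-13 and below them in RN2. Of all genes tested, 10.7% lay above in this way in MOLM-13 and 18.7% lay below in RN2. Neither change of EIF4E2 passed the test, the difference between the lines was not tested, and EIF4E2 was 1 of 45 genes compared in both.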

How the results depend on the processing

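No result changed direction while called, under any alternative run. The scalings tried (TMM, quantile normalization) kept the members' median below 0 in both knockouts, and quantile normalization gave -0.23 for sgSik3. With sgSik3, members that rose numbered 1 without the mean-variance trend and 1 by DESeq2. With sgMef2c, the rises were 0 without the trend and 1 by DESeq2, and the falls 3 without the trend and 12 by DESeq2. Between the knockouts, DESeq2 gave 4 higher and 0 lower. Leaving out each library gave ranges of 1 to 2 rises, 27 to 32 falls and medians of -0.25 to -0.22 for sgSik3, and of 0 to 2 rises, 6 to 18 falls and medians of -0.14 to -0.10 for sgMef2c. The ranges were 0 to 11 higher and 0 to 1 lower between the knockouts (leaving out sgRosa26 libraries there was chosen after seeing the data), 0 to 2 falls in RN2, with medians of -0.03 to -0.01, and medians of -0.0147 to 0.0172 in MOLM-13. Counts over all genes shifted in these fits as well. The cause of these shifts was not tested, except that fewer libraries enter each such fit. A fit that leaves a group with 1 library assumes that it varies like the other group.

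Over all genes, calls with sgMef2c were 887 higher and 741 lower without the trend, and by DESeq2 1051 lower. In RN2 they were 0 and 0 without the trend, and 0 higher and 3 lower with no filter on low values. DESeq2 called 3 higher and 4 lower genes in MOLM-13. Over all genes, DESeq2 between the knockouts gave 213 higher and 393 lower.

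With the replicate number as a block, members that fell numbered 3 in RN2, and the sgMef2c counts became 3 higher and 22 lower. For sgMef2c the number names a guide and for sgRosa26 only a library, so that block joins unlike numbers. Over all genes the block gave 196 higher and 303 lower in RN2, and 140 and 150 in MOLM-13. Deviations of same-numbered libraries correlated at 0.53 over all genes in MOLM-13, 0.22 in RN2 and 0.05 in the sgMef2c comparison, with 2 pairs each. Over the members the correlations were 0.82 in MOLM-13, -0.29 in RN2 and -0.23 in the sgMef2c comparison. Nothing in the labels ties the numbers to a shared source. For sgSik3 and for the knockouts against each other, no paired analysis was possible because the guides share no numbers with the other libraries.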
